A study of Mus musculus with 6 samples.

Results

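DNA replication genes were examined in colon RNA-seq libraries from mice given pregnenolone 16α-carbonitrile (PCN) or vehicle. The 51 genes were chosen by name and role, and they cover the Mcm2-7 helicase, origin licensing, helicase activation, polymerases, the sliding clamp and its loader, nucleotide supply, maintenance methylation and chromatin assembly, and entry into S phase. All 51 were among the 23282 genes of the deposited table and among the 16586 genes with enough reads to be tested. Both groups were wild-type C57BL/6J mice aged 8 weeks. The PCN group (3 libraries, replicates 4, 5 and 6) received 40 mg/kg PCN, an agonist of the rodent xenobiotic receptor PXR, by intraperitoneal injection, 3 times at intervals of 8 h. The vehicle group (Veh, 3 libraries, replicates 3, 5 and 6) is labelled as control and recorded with 0 mg/kg PCN and the same 3 injections at intervals of 8 h. The study's supplement names DMSO and corn oil as the solvent of PCN. Whole colon was taken 8 h after the last injection, and the study used the comparison to look for intestinal genes that respond to PXR. A single dose and time was analysed here, and the labels do not say whether each library is a separate mouse, so the p-values describe library-to-library spread, which may be technical.

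Before a cell copies its DNA, Orc1, Orc6, Cdc6 and Cdt1 load a ring of the Mcm2 to Mcm7 proteins onto replication origins during G1. At the start of S phase, Cdc45 and the GINS proteins join this ring to form the active CMG helicase, which opens the duplex ahead of the polymerases. In the colon, such dividing cells lie in the lower part of the crypts, and E2F transcription factors are known to switch on many of these genes as cells leave G1.

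E2F sites were therefore looked for first in the promoters of the genes. Of the 51 genes, 42 had an entry in a RefSeq promoter table (GRCm38.p6, 250 bases before to 50 after each start). An E2F-type match (TTTGGCGC, TTTCGCGC, TTTGCCGC or TTTCCCGC, on either strand) stood in 17 of the 42 genes (40.48%), against 704 of 27025 genes in the whole table (2.6%). The whole table was not limited to the 16586 genes tested in colon, and promoters were not matched for base composition. The matches fell in 4 of the 5 Mcm2-7 genes with an entry (Mcm3, Mcm5, Mcm6 and Mcm7, not Mcm2) and in 0 of 5 nucleotide supply genes. The stretches below hold the matches of the 8 genes that also rose in the DESeq2 test described next, written 5′ to 3′ on the strand of the gene, with the matched letters in capitals.
Mcm3, chr1:20820266-20820294, reverse strand: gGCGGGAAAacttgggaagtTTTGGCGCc
Mcm5, chr8:75109330-75109393, forward strand: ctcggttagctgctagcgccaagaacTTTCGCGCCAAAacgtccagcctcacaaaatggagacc
Mcm6, chr1:128359719-128359841, reverse strand: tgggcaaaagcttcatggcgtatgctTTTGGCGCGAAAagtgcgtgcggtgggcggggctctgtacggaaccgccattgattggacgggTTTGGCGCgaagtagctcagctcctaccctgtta
Cdc6, chr11:98907987-98908046, forward strand: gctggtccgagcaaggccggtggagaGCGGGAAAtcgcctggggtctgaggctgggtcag
Cdt1, chr8:122568035-122568064, forward strand: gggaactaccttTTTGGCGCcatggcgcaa
E2f2, chr4:136172294-136172323, forward strand: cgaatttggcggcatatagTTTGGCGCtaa
Lig1, chr7:13278841-13278870, forward strand: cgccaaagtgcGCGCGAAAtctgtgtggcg
Uhrf1, chr17:56304102-56304161, forward strand, upstream of the second of its 2 annotated starts: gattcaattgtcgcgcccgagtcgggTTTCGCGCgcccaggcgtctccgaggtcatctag

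Mcm3 held a match on each strand, at 20 and 39 bases past its start, and the matches of Mcm5 and of the upstream site of Mcm6 overlapped on opposite strands. Lig1 and E2f2, like Uhrf1, have further annotated starts, and the windows of those starts held no match. Other motifs were closer to the shares of the whole table. A CCAAT box (CCAAT, either strand) was found in 26 of 42 genes (61.9%) and in 41.06% of all genes, and TTTGAA (either strand), the core of the cell cycle homology region, in 7 of 42 (16.67%) and 20.23%. A match is a run of letters, and binding was not measured.

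The libraries held 21924026 to 25422856 counts over genes, with 20538 to 20963 genes detected. The epithelial markers Epcam, Cdh1 and keratins were present in all libraries, and the 10 epithelial markers together summed to 9311 ± 1149 CPM (counts scaled to a common library size) in PCN and 9093 ± 687 CPM in vehicle libraries (SD, n = 3 each). Cyp2c55, a cytochrome P450 known as inducible by PXR agonists in mouse, had 4690.1, 5017 and 3634 CPM in the PCN libraries, against 2334, 1070.0 and 1136 CPM in the vehicle libraries, so every PCN library was above every vehicle library (edgeR adjusted p = 0.188, DESeq2 adjusted p = 6.79e-06). The B cell and germinal centre markers summed to 38.6, 92.3 and 55.2 CPM in PCN replicates 4, 5 and 6, against 54.8, 38.5 and 53.2 CPM in vehicle replicates 3, 5 and 6, and PCN replicate 5 was the highest. In whole tissue, a difference in the number of dividing cells and a difference in RNA per cell cannot be told apart.

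Most of the replication genes had higher levels after PCN. Of the 51 genes, 48 (94.1%) had a positive log2 fold change, against 51.6% of all genes tested, and their median was 0.57, against 0.01 over all genes. At an unadjusted p under 0.05 in edgeR's quasi-likelihood test, 32 of 51 (62.7%) were higher and 0 lower, where 6.25% of all genes were higher and 3.73% lower. After adjustment over all 16586 genes edgeR called 0 of the 51 in either direction, and it called 5 genes higher (0.0301%) and 1 lower (0.00603%) in the whole table. DESeq2, on the same counts, called 14 of 51 higher (27.5%) and 0 lower after adjustment, against 1.03% and 0.259% of all genes, and at an unadjusted p it gave 32 higher and 0 lower (all genes 5.94% and 4.11%). In 31 of 51 genes (60.8%) every PCN library was above every vehicle library, against 8.69% of all genes, and in 0 genes every PCN library was below (7.39%). The genes were chosen with earlier results of these libraries known, so these shares describe them and carry no test of the list.

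**Figure D1:**
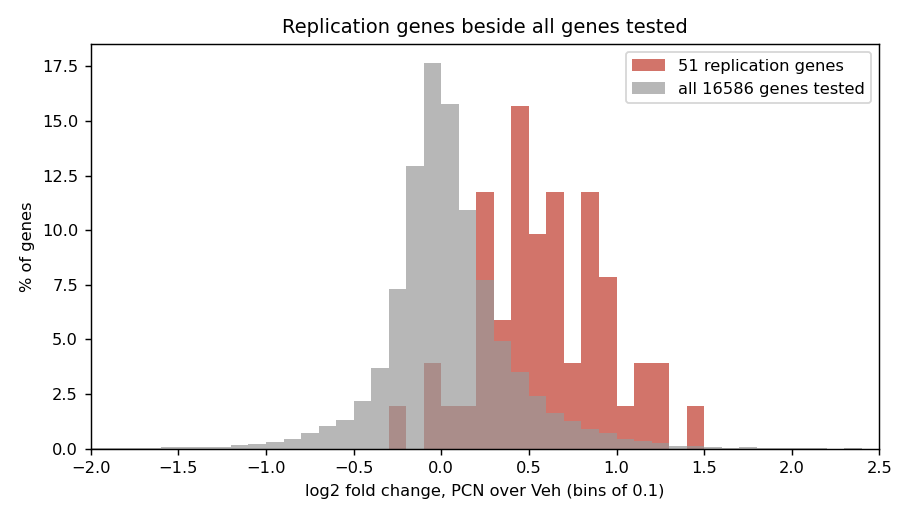
Distribution of log2 fold changes (PCN over Veh, edgeR) in bins of 0.1, as percent of genes, for the 51 replication genes (red) and all 16586 genes tested (grey), shown between -2 and 2.5. The red bars lie mostly above 0, with a median of 0.57, whereas the grey bars are centred at 0.01.

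The 14 genes that rose by DESeq2 were Mcm2, Mcm3, Mcm4, Mcm5, Mcm6, Cdc6, Cdt1, Gins2, Pole, Lig1, Rrm2, Uhrf1, Ccne1 and E2f2. When each of the 6 libraries was left out in turn, a check added after seeing the data, 5 of them (Mcm2, Mcm3, Mcm6, Cdc6 and Uhrf1) were called by DESeq2 every time. E2f2 was called in 4 of the 6 fits, Mcm4, Mcm5 and Ccne1 in 3, and Cdt1, Gins2, Pole, Lig1 and Rrm2 in 2. Without PCN replicates 4, 5 and 6, DESeq2 called 6, 21 and 5 replication genes higher, against 0.645%, 0.798% and 1.37% of all genes. Without vehicle replicates 3, 5 and 6 it called 14, 13 and 5, against 1.89%, 1.10% and 0.473% of all genes. Below, values per library are TMM-scaled CPM, given for PCN replicates 4, 5 and 6 and then for vehicle replicates 3, 5 and 6, and log2 fold changes with standard errors (SE) are those of edgeR.

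**Figure D2:**
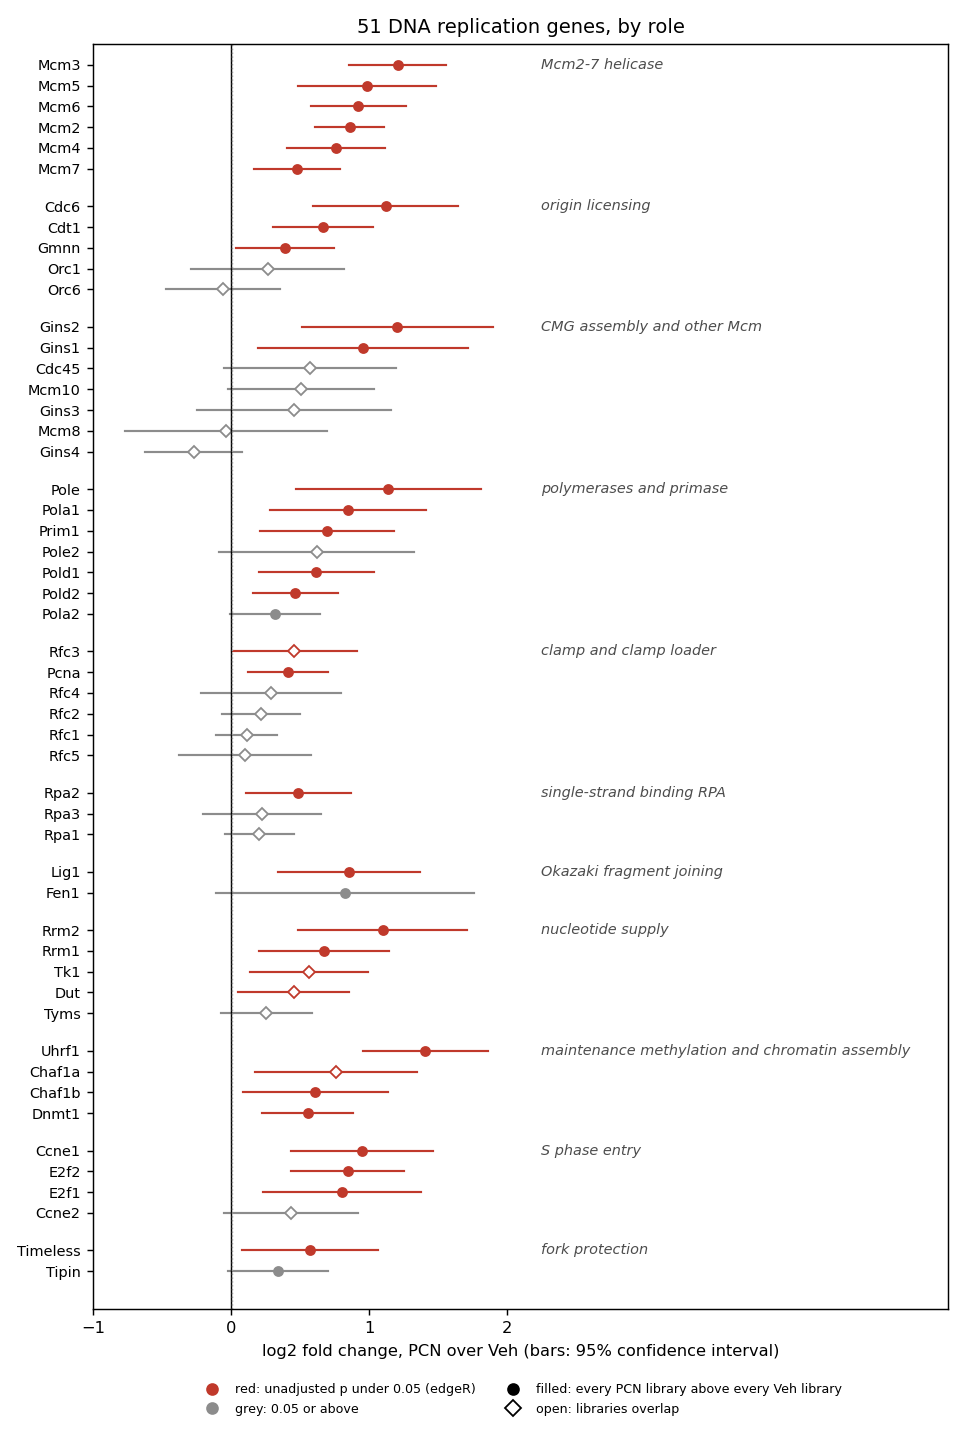
Log2 fold change (PCN over Veh, edgeR) of each of the 51 genes with its 95% confidence interval, grouped by role. Red marks an unadjusted p under 0.05 and filled circles mark genes with every PCN library above every vehicle library; all 6 helicase subunits are red and filled, and most clamp loader and RPA genes are grey and open.

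The helicase subunits Mcm2 to Mcm7 all had higher means after PCN, and in each of the 6 genes no PCN library overlapped a vehicle library. Mcm3 (chromosome 1, 20802968 to 20820312, reverse strand, GRCm38) had 31.8, 26.1 and 36.00 CPM in the PCN libraries, against 14.3, 14.4 and 12.00 CPM in the vehicle libraries, with means of 31.3 ± 4.95 CPM in PCN and 13.6 ± 1.35 CPM in vehicle libraries. Its log2 fold change of 1.21 (SE 0.15) was the largest of the 6 subunits, with an adjusted p of 0.0693 by edgeR and 4.03e-08 by DESeq2. Mcm2 (chromosome 6, 88883474 to 88898780, reverse strand, GRCm38) had 33.8, 33.3 and 33.3 CPM in the PCN libraries, against 19.1, 19.5 and 16.7 CPM in the vehicle libraries, and the 3 PCN libraries lay closer together than for any other subunit. Its log2 fold change was 0.86 (SE 0.11), with an adjusted p of 0.0693 by edgeR and 2.84e-07 by DESeq2. By unadjusted edgeR p, Mcm3 and Mcm2 ranked 9 and 10 of the 16586 genes. Mcm6 (chromosome 1, 128331590 to 128359664, reverse strand, GRCm38) had 64.3, 52.5 and 72.8 CPM in the PCN libraries, against 33.5, 37.9 and 28.7 CPM in the vehicle libraries, so the lowest PCN library, replicate 5, stood above the highest vehicle library. The log2 fold change of Mcm6 was 0.92, SE 0.15 (adjusted p = 0.125 by edgeR and 9.91e-05 by DESeq2).

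Mcm5 (chromosome 8, 75109569 to 75128439, forward strand, GRCm38) had 40.2, 26.3 and 38.2 CPM in the PCN libraries, against 21.3, 18.5 and 13.2 CPM in the vehicle libraries, and a log2 fold change of 0.98 (SE 0.22; adjusted p = 0.239 by edgeR, 0.00580 by DESeq2). PCN replicate 5 was well below the other PCN libraries here, and vehicle replicate 6 was the lowest of all. Mcm4 (chromosome 16, 15623897 to 15637400, reverse strand, GRCm38) had 35.5, 27.4 and 39.7 CPM in the PCN libraries, against 20.9, 21.4 and 18.3 CPM in the vehicle libraries, and a log2 fold change of 0.76 (SE 0.15; adjusted p = 0.204 by edgeR, 0.00627 by DESeq2). The DESeq2 calls of Mcm4 and Mcm5 were lost when vehicle replicate 6 or PCN replicate 4 or 6 was left out, where the adjusted p reached 0.115 and 0.113. Mcm7 (chromosome 5, 138164583 to 138172422, reverse strand, GRCm38) had 44.7, 40.6 and 50.8 CPM in the PCN libraries, against 37.6, 31.8 and 28.4 CPM in the vehicle libraries, the smallest difference of the 6, with a log2 fold change of 0.48 (SE 0.13). It was not called by either tool (adjusted p = 0.350 by edgeR, 0.135 by DESeq2). Mcm7 hosts the miRNAs Mir25 and Mir93, and 7.3% of its exonic bases overlap Ap4m1 on the other strand.

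**Figure D3:**
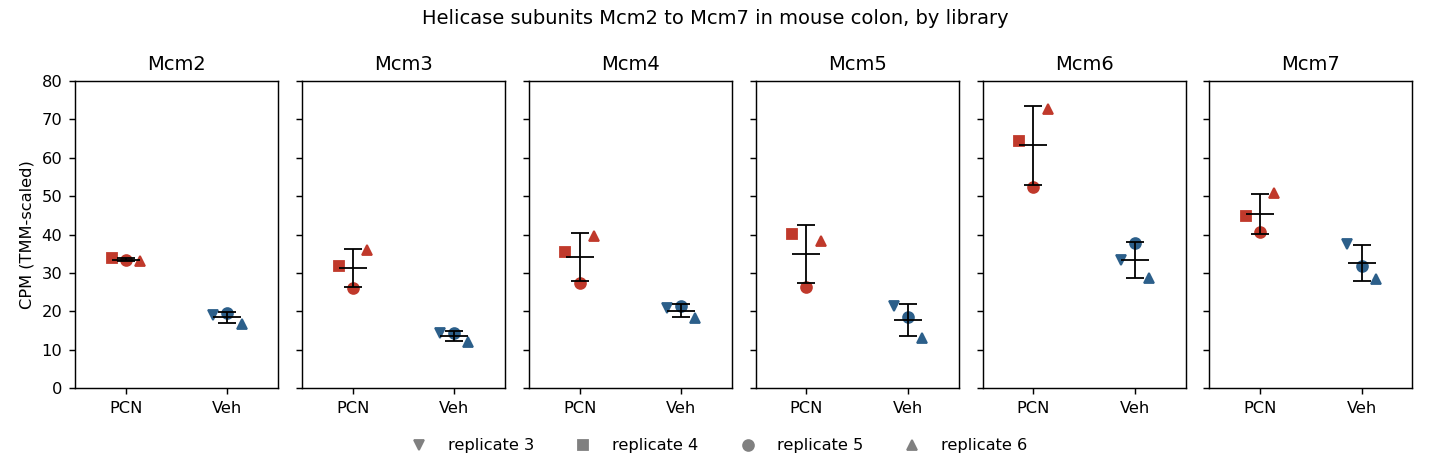
Level of each helicase subunit in each library (TMM-scaled CPM), with PCN in red and Veh in blue, and the mean and SD of each group as black bars. In all 6 panels the lowest PCN library is above the highest vehicle library, most narrowly for Mcm7 (40.6 against 37.6 CPM).

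Levels of the subunits can be compared with each other per length of gene, in the authors' FPKM values (fragments scaled by gene length and library size). Mcm6 averaged 13.3 ± 2.11 FPKM in PCN and 7.25 ± 0.878 FPKM in vehicle libraries, the highest of the 6 in PCN libraries. Mcm7 averaged 10.1 ± 1.12 FPKM in PCN and 7.47 ± 0.949 FPKM in vehicle libraries. Mcm4 averaged 9.37 ± 1.69 FPKM in PCN and 5.71 ± 0.349 FPKM in vehicle libraries. Mcm5 and Mcm3 came next, and Mcm2 was the lowest in both groups. Mcm5 averaged 8.60 ± 1.81 FPKM in PCN and 4.48 ± 0.974 FPKM in vehicle libraries. Mcm3 averaged 8.20 ± 1.28 FPKM in PCN and 3.66 ± 0.291 FPKM in vehicle libraries. Mcm2 averaged 4.73 ± 0.0311 FPKM in PCN and 2.69 ± 0.167 FPKM in vehicle libraries. Within each PCN library Mcm7 was above Mcm3, Mcm4 and Mcm5, and within the vehicle libraries Mcm7 was above Mcm6 in replicates 3 and 6 and below it in replicate 5. The place of Mcm2 rests on its length, since its merged exons in GENCODE span 6956 bases and those of the other subunits 3589 to 4666, and in CPM Mcm2 averaged more than Mcm3 in both groups. The sum of the 6 subunits was 250.4, 206.3 and 270.8 CPM in the PCN libraries, against 146.8, 143.5 and 117.3 CPM in the vehicle libraries.

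Among the loading factors, Cdc6 and Cdt1 rose by DESeq2 and the origin recognition subunits were not called. Cdc6, the ATPase that helps to load the Mcm ring, had 8.48, 6.77 and 10.5 CPM in the PCN libraries, against 4.27, 3.63 and 3.96 CPM in the vehicle libraries, a log2 fold change of 1.12 (SE 0.23). Its adjusted p was 0.204 by edgeR and 0.00240 by DESeq2, with 0.0402 as the highest DESeq2 value when 1 library was left out. Cdt1, which brings the ring to the origin, had 25.3, 21.8 and 27.2 CPM in the PCN libraries, against 17.9, 15.95 and 13.02 CPM in the vehicle libraries (log2 fold change 0.66, SE 0.16, adjusted p = 0.283 by edgeR and 0.0281 by DESeq2). Its DESeq2 call held only without vehicle replicate 3 and without PCN replicate 5, and its adjusted p reached 0.242. Gmnn (geminin), the inhibitor of Cdt1, averaged 16.5 ± 2.13 CPM in PCN and 12.5 ± 1.07 CPM in vehicle libraries and did not overlap between groups (log2 fold change 0.39, SE 0.15). Orc1 averaged 7.87 ± 1.61 CPM in PCN and 6.56 ± 1.33 CPM in vehicle libraries and Orc6 averaged 12.01 ± 2.20 CPM in PCN and 12.5 ± 1.15 CPM in vehicle libraries, with log2 fold changes of 0.26 and -0.06 and libraries that overlapped. The sign for Orc6 turned positive without vehicle replicate 5 (0.0042) and without PCN replicate 5 (0.06).

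The factors that turn the loaded ring into the active helicase were mixed. Gins2, 1 of the 4 GINS subunits, had 8.31, 5.37 and 9.32 CPM in the PCN libraries, against 3.09, 4.37 and 2.51 CPM in the vehicle libraries (log2 fold change 1.2, SE 0.30, adjusted p = 0.306 by edgeR and 0.0220 by DESeq2). The call was lost when vehicle replicate 3 or 6 or PCN replicate 4 or 6 was left out, with an adjusted p of up to 0.244. Of the exonic bases of Gins2, 67.3% overlap Gse1 on the other strand, and whether the counting used strand is not given in the sources used here. Gse1 averaged 72.7 CPM in PCN and 76.1 CPM in vehicle libraries, well above Gins2 (7.67 and 3.32 CPM). Gse1 had a log2 fold change of -0.07, and the part of its reads in the Gins2 counts was not tested. Gins1 averaged only 2.47 ± 0.723 CPM in PCN and 1.27 ± 0.136 CPM in vehicle libraries and did not overlap between groups (log2 fold change 0.95, SE 0.33). Gins3 and Gins4, the remaining subunits of the same complex, had log2 fold changes of 0.46 and -0.27, and their libraries overlapped. For Gins4 the values were 12.3, 13.2 and 14.2 CPM in the PCN libraries, against 16.8, 13.6 and 17.5 CPM in the vehicle libraries, the one gene of the 51 with its highest value in a vehicle library. Cdc45 averaged 7.18 ± 2.35 CPM in PCN and 4.83 ± 0.417 CPM in vehicle libraries and Mcm10, which helps to activate the helicase, averaged 14.3 ± 3.46 CPM in PCN and 10.1 ± 1.98 CPM in vehicle libraries (log2 fold changes 0.57 and 0.50). Mcm8, which belongs to a different helicase used in recombination, averaged 4.06 ± 1.51 CPM in PCN and 4.18 ± 0.444 CPM in vehicle libraries. Its log2 fold change of -0.04 turned to 0.04 without vehicle replicate 3 and to 0.23 without PCN replicate 5. In this group 2 of 7 genes were higher at an unadjusted edgeR p under 0.05 (28.6%, all genes 6.25%) and 1 was called by DESeq2 (14.3%, all genes 1.03%).

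Of the 7 polymerase and primase genes, 6 had every PCN library above every vehicle library (8.69% of all genes) and 5 had an unadjusted edgeR p under 0.05 (6.25%), with a median log2 fold change of 0.62. Pole, the catalytic subunit of the leading-strand polymerase epsilon, was the only one that DESeq2 called. It had 10.6, 8.30 and 17.2 CPM in the PCN libraries, against 6.50, 5.28 and 4.59 CPM in the vehicle libraries (log2 fold change 1.14, SE 0.29, adjusted p = 0.313 by edgeR and 0.0220 by DESeq2). PCN replicate 6 was far above the other PCN libraries, and without it the DESeq2 log2 fold change was 0.78. The Pole call was also lost without vehicle replicate 5, vehicle replicate 6 or PCN replicate 4, with an adjusted p of up to 0.251. Pola1, the catalytic subunit of polymerase alpha, had 13.1, 8.67 and 14.2 CPM in the PCN libraries, against 8.27, 6.10 and 5.65 CPM in the vehicle libraries (log2 fold change 0.85, SE 0.25, DESeq2 adjusted p = 0.0757). Prim1, the primase that makes the RNA primer, had 12.4, 9.04 and 14.7 CPM in the PCN libraries, against 7.59, 7.91 and 6.78 CPM in the vehicle libraries (log2 fold change 0.70, SE 0.21, DESeq2 adjusted p = 0.126). Pold1, the catalytic subunit of the lagging-strand polymerase delta, had 29.96, 21.8 and 28.8 CPM in the PCN libraries, against 19.9, 13.9 and 18.8 CPM in the vehicle libraries (log2 fold change 0.62, SE 0.18, DESeq2 adjusted p = 0.108). Its partner Pold2 had 31.7, 24.4 and 28.9 CPM in the PCN libraries, against 21.96, 20.7 and 18.9 CPM in the vehicle libraries (log2 fold change 0.46, SE 0.13, DESeq2 adjusted p = 0.145). In each of these 4 genes the groups were apart and PCN replicate 5 was the lowest PCN library. By edgeR the adjusted p of Pola1, Prim1, Pold1 and Pold2 was 0.368, 0.383, 0.375 and 0.367. Pola2 averaged 29.2 ± 3.40 CPM in PCN and 23.4 ± 3.11 CPM in vehicle libraries and Pole2 averaged 5.62 ± 2.02 CPM in PCN and 3.65 ± 0.733 CPM in vehicle libraries, with log2 fold changes of 0.32 and 0.62.

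The sliding clamp, its loader and the single-strand binding protein showed smaller differences. Pcna, the ring that holds polymerases on DNA, had 59.04, 49.2 and 65.95 CPM in the PCN libraries, against 45.8, 46.04 and 39.2 CPM in the vehicle libraries (log2 fold change 0.41, SE 0.13, DESeq2 adjusted p = 0.236), and its counts may be shared with the annotated pseudogenes Pcna-ps1 and Pcna-ps2. The 5 clamp loader subunits Rfc1, Rfc2, Rfc3, Rfc4 and Rfc5 had log2 fold changes of 0.11, 0.22, 0.46, 0.29 and 0.10, and all of them overlapped between groups. Rfc5 turned to -0.15 without PCN replicate 6. Of the RPA subunits, which coat single-stranded DNA, Rpa2 averaged 15.4 ± 1.43 CPM in PCN and 10.99 ± 1.71 CPM in vehicle libraries with groups apart (log2 fold change 0.49, SE 0.17). Rpa1 averaged 48.05 ± 4.82 CPM in PCN and 41.7 ± 3.06 CPM in vehicle libraries and Rpa3 averaged 11.5 ± 2.27 CPM in PCN and 9.84 ± 0.315 CPM in vehicle libraries (log2 fold changes 0.20 and 0.22). Taking clamp, loader and RPA, DESeq2 called 0 of the 9 genes, near the share of 1.03% over all genes. At an unadjusted edgeR p under 0.05, 3 of the 9 were higher (6.25% of all genes).

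Lig1, the ligase that seals Okazaki fragments, had 33.7, 26.4 and 43.5 CPM in the PCN libraries, against 24.5, 16.9 and 16 CPM in the vehicle libraries (log2 fold change 0.85, SE 0.22, adjusted p = 0.318 by edgeR and 0.0326 by DESeq2). Vehicle replicate 3 came close to PCN replicate 5, and the call was lost when vehicle replicate 5 or 6 or PCN replicate 4 or 6 was left out, with an adjusted p of up to 0.329. Fen1, the nuclease that trims those fragments, had only 13 to 40 counts per library. With so few counts its log2 fold change of 0.83 (SE 0.41) is uncertain, and DESeq2 gave it no adjusted p. The exons of Fen1 overlap the antisense gene Gm10143 over 78.8% of their bases. Gm10143 averaged 0.18 CPM in PCN and 0.21 CPM in vehicle libraries, below Fen1 (1.43 and 0.81 CPM). The effect of the overlap on the Fen1 counts was not tested.

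In nucleotide supply, 4 of 5 genes had an unadjusted edgeR p under 0.05 (all genes 6.25%) and Rrm2 was called by DESeq2. Rrm2, the small subunit of ribonucleotide reductase and the one made mainly in S phase, had 24.4, 18.8 and 34.7 CPM in the PCN libraries, against 11.7, 15.7 and 9.06 CPM in the vehicle libraries. Its log2 fold change was 1.10 (SE 0.27; adjusted p = 0.295 by edgeR, 0.0129 by DESeq2), and the call was lost without vehicle replicate 3, vehicle replicate 6, PCN replicate 4 or PCN replicate 6, with an adjusted p of up to 0.187. The large subunit Rrm1 averaged 51.2 ± 13.4 CPM in PCN and 32.1 ± 5.22 CPM in vehicle libraries (log2 fold change 0.67, SE 0.21). Thymidine kinase Tk1 averaged 30.3 ± 6.97 CPM in PCN and 20.5 ± 2.64 CPM in vehicle libraries, and Dut, which removes dUTP, averaged 18.03 ± 3.36 CPM in PCN and 13.2 ± 1.19 CPM in vehicle libraries (log2 fold changes 0.56 and 0.45). In both, PCN replicate 5 lay within the vehicle range. Tyms, thymidylate synthase, averaged 18.3 ± 2.35 CPM in PCN and 15.4 ± 0.774 CPM in vehicle libraries (log2 fold change 0.25) and has an annotated pseudogene, Tyms-ps.

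Uhrf1 had the largest log2 fold change of all 51 genes. The protein binds hemimethylated DNA behind the fork and brings in Dnmt1, which copies the methylation to the new strand. Uhrf1 (chromosome 17, 56303321 to 56323486, forward strand, GRCm38) had 37.2, 27.9 and 42.1 CPM in the PCN libraries, against 16.5, 12.9 and 11.2 CPM in the vehicle libraries, so that even PCN replicate 5 was well above the highest vehicle library. Its mean was 35.8 ± 7.21 CPM in PCN and 13.5 ± 2.70 CPM in vehicle libraries, and its log2 fold change was 1.41 (SE 0.20; adjusted p = 0.0832 by edgeR, 1.2e-07 by DESeq2). Dnmt1 itself had 77.8, 64.8 and 91.5 CPM in the PCN libraries, against 54.7, 58.8 and 46.00 CPM in the vehicle libraries, a log2 fold change of 0.55 (SE 0.14; adjusted p = 0.318 by edgeR, 0.0813 by DESeq2). It was the most abundant of the 51 genes by CPM, with groups apart. The chromatin assembly subunit Chaf1b averaged 9.88 ± 2.57 CPM in PCN and 6.47 ± 0.800 CPM in vehicle libraries with groups apart (log2 fold change 0.61, SE 0.23). Chaf1a averaged 13.1 ± 2.95 CPM in PCN and 7.72 ± 2.09 CPM in vehicle libraries (log2 fold change 0.76, SE 0.26), with PCN replicate 5 just under the highest vehicle library. Over 52.5% of its exonic bases Chaf1a overlaps Ubxn6 on the other strand. Ubxn6 averaged 24.5 CPM in PCN and 26.1 CPM in vehicle libraries, above Chaf1a in both groups. Ubxn6 had a log2 fold change of -0.09, and the part of its reads in the Chaf1a counts was not tested.

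Of the 4 genes that bring cells into S phase, 3 did not overlap between groups (all genes 8.69%) and DESeq2 called 2 (all genes 1.03%). E2f2, an activating E2F factor, had 34.9, 33.7 and 39.6 CPM in the PCN libraries, against 25.5, 19.04 and 15.8 CPM in the vehicle libraries (log2 fold change 0.84, SE 0.18, adjusted p = 0.207 by edgeR and 0.00520 by DESeq2), a call lost by DESeq2 without vehicle replicate 6 or PCN replicate 6, with an adjusted p of up to 0.0541. Ccne1 (cyclin E1), which activates Cdk2 at the G1 to S transition, had 7.35, 7.10 and 10.04 CPM in the PCN libraries, against 4.41, 4.62 and 3.69 CPM in the vehicle libraries (log2 fold change 0.95, SE 0.22, adjusted p = 0.283 by edgeR and 0.0202 by DESeq2). That call was lost when vehicle replicate 6 or PCN replicate 4 or 6 was left out, with an adjusted p of up to 0.223. E2f1 averaged 8.86 ± 2.48 CPM in PCN and 5.07 ± 0.588 CPM in vehicle libraries with groups apart (log2 fold change 0.80, SE 0.25), and Ccne2 averaged 9.70 ± 2.01 CPM in PCN and 7.17 ± 0.782 CPM in vehicle libraries (log2 fold change 0.44). Timeless, which protects stalled forks together with Tipin, averaged 11.6 ± 2.99 CPM in PCN and 7.79 ± 0.728 CPM in vehicle libraries (log2 fold change 0.57). Tipin averaged 10.7 ± 0.457 CPM in PCN and 8.44 ± 0.695 CPM in vehicle libraries (log2 fold change 0.34), and in both genes every PCN library was above every vehicle library.

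Genes with and without an E2F-type match were set side by side. The 17 genes with a match had a median log2 fold change of 0.66, 13 of them with an unadjusted edgeR p under 0.05 and 12 with groups apart. The 25 genes with a promoter entry and no match had a median of 0.50, with 14 and 13 genes in those counts, and the 9 genes with no entry had a median of 0.44, with 5 and 6. Over all genes the shares were 6.25% and 8.69%. Both sets spanned a wide range, including Mcm8 among the genes with a match and Rrm2 among those without, and the difference between the sets was not tested.

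The libraries of each group differed from each other. PCN replicate 5 had the lowest value of the 3 PCN libraries in 48 of 51 genes (94.1%), against 30.8% of all genes tested, and PCN replicate 6 had the highest of the 3 in 40 (78.4%), against 36.1%. Vehicle replicate 6 had the lowest value of the 3 vehicle libraries in 31 genes (60.8%, all genes 26%) and the lowest of all 6 libraries in 30 (58.8%, all genes 13.0%). Summed over the 51 genes, the level was 1188.8, 953.8 and 1315.4 CPM in the PCN libraries, against 830.5, 794.3 and 712.2 CPM in the vehicle libraries, so the sums did not overlap. Without PCN replicate 5 the median log2 fold change was 0.74 and 48 of 51 genes had every PCN library above every vehicle library, against 13.7% of all genes with that library left out. PCN replicate 5 was the lowest PCN library in most of these genes, so a larger difference follows from leaving it out. Without PCN replicate 6 the median was 0.40.

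Genes of mitosis had the same order of libraries within each group as the replication genes, with a wider spread among PCN libraries. Relative to each gene's mean, the median of 30 mitosis genes was 0.56, -0.64 and 0.63 in the PCN libraries, against 0.10, -0.11 and -0.56 in the vehicle libraries. The median of all 51 replication genes was 0.37, -0.01 and 0.52 in the PCN libraries, against -0.16, -0.26 and -0.40 in the vehicle libraries. In PCN replicate 5, the mitosis median was thus the lowest of all 6 libraries, and 18 of the 30 genes had their lowest value there, against 5 of the 51 replication genes. Of the mitosis genes, 29 had a positive log2 fold change (median 0.46), 3 of 30 were higher at an unadjusted edgeR p under 0.05 (all genes 6.25%), 1 had every PCN library above every vehicle library (3.33%, all genes 8.69%) and DESeq2 called 0 (all genes 1.03% higher). The 3 were Kif11 and Nuf2, which act on the spindle and the kinetochore, and the topoisomerase Top2a, with log2 fold changes of 0.82, 0.90 and 0.66.

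**Figure D4:**
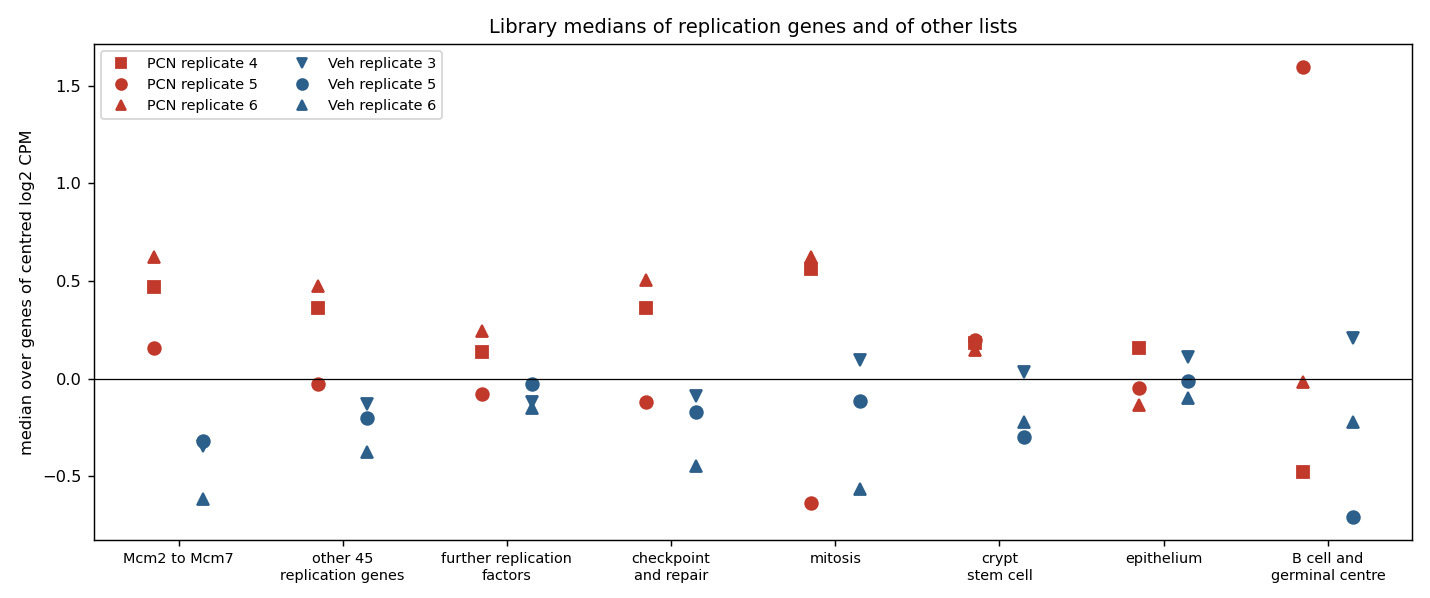
Median over the genes of each list of log2 CPM, centred on each gene's mean over the 6 libraries, with PCN libraries in red left of Veh libraries in blue and 1 symbol per replicate. For Mcm2 to Mcm7 the PCN libraries (0.16 to 0.62) lie above the vehicle libraries (-0.62 to -0.32), while for mitosis PCN replicate 5 (-0.64) is the lowest point and for B cell markers (1.60) the highest.

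Other genes of replication and growth were counted in the same way, from lists of known members. Of 33 further replication factors tested (34 listed), 26 had a positive log2 fold change with a median of 0.20, 9 were higher (27.3%) and 0 lower at an unadjusted edgeR p under 0.05 (all genes 6.25% and 3.73%), and DESeq2 called Clspn, the checkpoint adaptor claspin (log2 fold change 1.00, DESeq2 adjusted p = 0.0281). Wdhd1, which ties the helicase to polymerase alpha, and Chtf18, a subunit of an alternative clamp loader, had log2 fold changes of 0.59 and 0.91. Of 19 further nucleotide synthesis genes, 7 were higher (36.8%) and 0 lower at an unadjusted edgeR p under 0.05. Cad, which starts pyrimidine synthesis, rose by DESeq2 (log2 fold change 0.92, adjusted p = 0.0705 by edgeR and 6.61e-07 by DESeq2), as did Gart, of purine synthesis (0.44, DESeq2 adjusted p = 0.0200). Atic, of the same purine pathway, had a log2 fold change of 0.38.

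Among 33 control genes of the G1 to S step, 25 (75.8%) had a positive log2 fold change, against 51.6% of all genes. Of 33 such genes, 8 were higher (24.2%, all genes 6.25%) and 3 lower (9.09%, all genes 3.73%) at an unadjusted edgeR p under 0.05, with a median of 0.17. Ccnd1 (cyclin D1) was called higher by DESeq2 (log2 fold change 0.79, DESeq2 adjusted p = 0.0342), and Dtl and Ccnd2 had log2 fold changes of 0.85 and 0.48. The 3 lower ones, named after their values were seen, were the Cdk inhibitor Cdkn1a (-0.59), the RB relative Rbl2 (-0.32) and Tfdp2 (-0.27), a partner of E2F factors, and DESeq2 called 0 lower (all genes 0.259%). Other listed Cdk inhibitors were positive (Cdkn1c 0.31, Cdkn2c 0.18) or negative (Cdkn1b -0.02, Cdkn2d -0.30). Rb1 was at -0.05, Rbl1 at 0.17 and Tfdp1 at 0.22. Among 21 checkpoint and repair genes, 7 were higher at an unadjusted edgeR p under 0.05 (33.3%, all genes 6.25%) and DESeq2 called 0 (all genes 1.03% higher), with Exo1 and Chek1 at log2 fold changes of 1.05 and 0.86. Of 15 crypt stem cell genes, 14 were positive on the log2 scale (median 0.32), 5 had an unadjusted edgeR p under 0.05 (33.3%, all genes 6.25%) and DESeq2 called Prom1 (0.44, DESeq2 adjusted p = 0.0225). Ephb2 and Cd44 had log2 fold changes of 0.43 and 0.35. In this list the 3 PCN libraries were level, with centred medians of 0.18, 0.20 and 0.15, against 0.03, -0.30 and -0.22 in the vehicle libraries.

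Summed levels of markers of other cell types were set beside these values. The 8 goblet cell markers summed to 34863 ± 6270 CPM in PCN and 24244 ± 2435 CPM in vehicle libraries, with 8 of 8 log2 fold changes positive, and the 8 fibroblast markers to 1933 ± 239 CPM in PCN and 1372 ± 168 CPM in vehicle libraries, with 7 of 8 positive (SD, n = 3 each). At an unadjusted edgeR p under 0.05, 4 of 8 goblet cell and 5 of 8 fibroblast markers (62.5%) were higher. The share was 62.7% for the replication genes and 6.25% for all genes. DESeq2 called 2 goblet cell and 3 fibroblast markers higher (all genes 1.03%). Smooth muscle markers summed to 4797, 3073 and 1377 CPM in the PCN libraries, against 2437, 1526 and 1573 CPM in the vehicle libraries, an order in which PCN replicate 6 was the lowest and the replication genes there were the highest. For the smooth muscle markers, 7 of 7 log2 fold changes were positive. Of these 7, 1 was higher at an unadjusted edgeR p under 0.05 (14.3%, all genes 6.25%). B cell and germinal centre markers were highest in PCN replicate 5, the PCN library with the lowest replication genes. Of the 9 B cell markers tested, 7 had a positive log2 fold change. Of these 9, 0 were higher at an unadjusted edgeR p under 0.05 (all genes 6.25%). The 8 T cell markers, with 8 of 8 log2 fold changes positive, summed to 25.98 ± 7.75 CPM in PCN and 20.9 ± 7.75 CPM in vehicle libraries. Macrophage markers summed to 299.8 ± 52.0 CPM in PCN and 224 ± 62.3 CPM in vehicle libraries, with 8 of 8 log2 fold changes positive. At an unadjusted edgeR p under 0.05, 2 of 8 macrophage markers were higher (25.0%, all genes 6.25%). No marker of these lists was at 0 in every library. Small intestine enterocyte markers summed to 183 ± 11.4 CPM in PCN and 246 ± 74.7 CPM in vehicle libraries, with 5 of 7 tested markers negative and 2 called lower by DESeq2 (all genes 0.259%). Of the enteric neuron and glia markers 6 of 7 were negative, of the endothelial markers 3 of 6 and of the surface colonocyte markers 3 of 8. Among the surface colonocyte markers, 1 was higher and 1 lower at an unadjusted edgeR p under 0.05 (all genes 6.25% and 3.73%). DESeq2 called 1 surface colonocyte marker lower (all genes 0.259%). Median log2 fold changes were 0.91 for B cell, 0.82 for smooth muscle, 0.58 for goblet cell and 0.55 for fibroblast markers, against 0.57 for the replication genes. They were 0.41 for T cell, 0.38 for macrophage, 0.13 for surface colonocyte and 0.04 for endothelial markers. Those of epithelial, enteric neuron and glia, and small intestine enterocyte markers were -0.0037, -0.20 and -0.35. The part of these cell types in the difference of the replication genes was not tested.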

How the data were processed

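Colon RNA-seq of 3 PCN and 3 vehicle libraries was analysed from 1 deposited table. The counts deposited by the authors are read counts per gene, made according to the supplementary methods with STAR and HTSeq. Those methods name a pig assembly, a TruSeq kit and poly-A selection, whereas the labels name the mouse build mm10 and a SMARTER kit, and the gene identifiers are those of mouse. The FPKM values deposited by the authors are scaled by gene length and library size, and how they were computed is not given in the sources used here. The table also holds the authors' own fold changes and p-values, which were not used.

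Counts were scaled by TMM and tested with the quasi-likelihood test (glmQLFit, glmQLFTest) of edgeR 4.0.16, run in R 4.3.3. Genes passed filterByExpr with its defaults (count 10, total 15), and p-values of the 16586 that passed were adjusted by Benjamini-Hochberg and read at 0.05. Alternative tests were DESeq2 1.42.0, and limma 3.58.1 with a trend after taking log2 of FPKM plus 1 or plus 0.1. The common biological coefficient of variation was 0.199. For 3 against 3 libraries an exact two-sided permutation test cannot go below 0.1, so none was used. The depth was 21924026 to 25422856 counts per library, and no pair of libraries was alike within sampling noise. Named with all statistics were Mcm2 to Mcm7 and the 14 other genes with the smallest edgeR p, and from each further list up to 3 genes with the smallest edgeR p among those under 0.05. In the list of G1 to S control, the lower genes and their listed relatives were named as well. Coordinates are from GENCODE M21 (GRCm38), in which 34 of the 51 genes share no exonic base with another gene, and promoters are from RefSeq (GRCm38.p6). The 51 genes, their roles and all lists were chosen with earlier results of these data known. Alternatives were DESeq2, other scalings, no filter on low counts, limma, a replicate block, and each library left out in turn. Single values of some listed genes are not reported here.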

Additional observations from a re-analysis of the deposited data

How the results depend on the processing

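Of 663 log2 fold changes of the 51 genes over 13 alternative settings, 658 kept their sign, and 3 genes near 0 reversed: Mcm8 (-0.26 to 0.23 with 1 library left out, and 0.04 without vehicle replicate 3), Orc6 (-0.20 to 0.062, and 0.0042 without vehicle replicate 5) and Rfc5 (-0.15 to 0.29). The number of replication genes called higher at an adjusted p under 0.05 was 0 with edgeR, 14 with DESeq2 and 3 with no filter on low counts (Mcm2, Mcm3 and Uhrf1), and 0 to 1 with 1 library left out, the 1 being Uhrf1 without vehicle replicate 3 (adjusted p = 0.0495). DESeq2 with 1 library left out called 5 to 21. Over all genes, edgeR called 5 higher and 1 lower, DESeq2 171 and 43, and edgeR with no filter 25 and 2, with library totals 2 and 1, and with 1 library left out 0 to 22 and 0 to 2. At an unadjusted p under 0.05, 22 to 40 genes were higher and 0 to 1 lower with 1 library left out, and limma gave 1 lower at both pseudocounts. Replication genes with every PCN library above every vehicle library numbered 31 to 48 with 1 library left out. The shares of all genes in those fits were 11.9% to 15.8%, against 8.69% with all libraries kept. With library totals, and with limma on log2(FPKM + 1), 30 replication genes were above, against 6.53% of all genes. Replication genes with every PCN library below every vehicle library numbered 0 to 1. The median log2 fold change of the 51 genes ran between 0.36 with limma on log2(FPKM + 1) and 0.74 without PCN replicate 5. The causes of these differences were not tested. Replicate numbers 5 and 6 occur in both groups. Deviations of same-numbered libraries from their group means correlated at -0.15 and -0.09, and those of the other pairs at -0.11 to 0.16. Deviations within a group of 3 libraries depend on each other, so these values cannot show whether the numbers pair the libraries. A replicate block on the replicate numbers called 1 gene of the 51 (Uhrf1, adjusted p = 0.0199), 20 at an unadjusted p, and 64 higher and 10 lower over all genes. Vehicle replicate 3 and PCN replicate 4 have no same-numbered library in the other group. The PCN effect in the block fit therefore rests on replicates 5 and 6 of each group. Genes with few counts, such as Fen1 and Gins1, are measured imprecisely.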
